A study of Homo sapiens with 8 samples.

Results

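NEAT1, MALAT1 and 4 mRNAs were followed through the recovery from heat shock in HCT116 cells, a human colon cancer line. The mRNAs encode SFPQ, NONO, PSPC1 and RBM14, proteins that gather with NEAT1 RNA in the nucleus. The 6 genes were taken by symbol from the 55075 genes of the deposited tables, and all 6 passed the filter that left 17471 genes for testing. The cells were wild type (WT) or lacked FBXW7 by knockout (KO), a gene whose product picks the proteins that a ubiquitin ligase of the SCF type marks for degradation. Both were grown attached in McCoy's 5A medium. Cells of all 4 groups had been at 42 °C for 1 h. The WT heat shock and KO heat shock groups are the cells labelled as heat shock, and the WT recovery and KO recovery groups had a further 2 h at 37 °C. Each group had 2 libraries. Cells that were never heated were not analysed here, so no value below compares heat shock with the resting state. The labels do not say whether the KO line is 1 clone or whether replicates were separate cultures. The p-values therefore measure only how far these libraries spread, which may be technical.

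Paraspeckles are small nuclear bodies built on NEAT1, a long noncoding RNA. NEAT1 is made in a short polyadenylated form and a long form that begins at the same site, and the long form is the scaffold of the body. SFPQ, NONO and PSPC1 belong to the DBHS family of RNA-binding proteins, which bind each other in pairs and coat NEAT1, and RBM14 is a coactivator and prion-like protein that helps the body to assemble. Paraspeckles are known to hold back RNAs and proteins in stressed cells. MALAT1, the neighbour of NEAT1 on chromosome 11, is an abundant nuclear RNA of the nuclear speckles, bodies that store splicing factors. The long form of NEAT1 and MALAT1 carry no ordinary poly(A) tail: RNase P cuts their ends, and in MALAT1 the cut releases a small tRNA-like RNA called mascRNA.

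In the GRCh38 annotation (GENCODE 29), matched by gene identifier, NEAT1 (ENSG00000245532) is a long intergenic noncoding RNA gene at chr11:65422774-65445540 on the plus strand. MALAT1 (ENSG00000251562) follows on the same strand at chr11:65497688-65506516. SFPQ (ENSG00000116560) lies at chr1:35176378-35193148 on the minus strand, NONO (ENSG00000147140) at chrX:71283192-71301168 on the plus strand and PSPC1 (ENSG00000121390) at chr13:19674752-19783019 on the minus strand. RBM14 (ENSG00000239306) lies on the plus strand at chr11:66616582-66627347. Values per gene are counts over its exons, so a change cannot be placed in one exon or transcript.

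The 3′ ends of the noncoding RNAs are shown because they bear on capture by a poly(A) tail, which was one of the library methods. The sequences are the last 90 bases of the short NEAT1-208 transcript of 2994 bases (chr11:65426424-65426513), the last 90 bases of the long NEAT1-202 transcript of 22743 bases (chr11:65445451-65445540), and the 90 bases of MALAT1 in front of mascRNA (chr11:65506027-65506116), all on the plus strand of GRCh38 and read from GENCODE transcripts. Capitals mark the AATAAA polyadenylation signal in the short NEAT1 end and the A-rich tract in the other ends.
NEAT1 short end: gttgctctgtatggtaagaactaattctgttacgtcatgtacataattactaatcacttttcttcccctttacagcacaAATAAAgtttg
NEAT1 long end: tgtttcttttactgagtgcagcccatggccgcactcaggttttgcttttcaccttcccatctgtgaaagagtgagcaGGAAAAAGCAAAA
MALAT1 end: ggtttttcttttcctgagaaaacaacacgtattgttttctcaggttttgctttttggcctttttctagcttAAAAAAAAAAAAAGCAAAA
mascRNA: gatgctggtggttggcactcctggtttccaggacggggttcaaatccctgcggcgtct
The long NEAT1 end and the MALAT1 end share a run of 16 bases, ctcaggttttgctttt, which is followed by 41 bases in NEAT1 and 36 in MALAT1, and both finish in the same A-rich letters. Neither of these ends holds AATAAA in the bases shown. The 58 bases of mascRNA (chr11:65506117-65506174, placed by RefSeq) follow the MALAT1 end directly.

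Promoter windows from RefSeq (GRCh38.p14), which run from 250 bases before to 50 bases after a gene's start, were matched for 4 of the 6 genes, with 5 windows in all. NEAT1 and SFPQ had no entry. PSPC1 and RBM14 are shown because their levels moved together across the libraries, and NONO because its level moved apart from theirs. Capitals mark CCAAT and CCGGAA on either strand (as ATTGG and TTCCGG where they read on the other strand). The windows are chr13:19782896-19783195 on the minus strand for PSPC1, chr11:66616380-66616679 on the plus strand for RBM14 and chrX:71283385-71283684 on the plus strand for NONO.
PSPC1: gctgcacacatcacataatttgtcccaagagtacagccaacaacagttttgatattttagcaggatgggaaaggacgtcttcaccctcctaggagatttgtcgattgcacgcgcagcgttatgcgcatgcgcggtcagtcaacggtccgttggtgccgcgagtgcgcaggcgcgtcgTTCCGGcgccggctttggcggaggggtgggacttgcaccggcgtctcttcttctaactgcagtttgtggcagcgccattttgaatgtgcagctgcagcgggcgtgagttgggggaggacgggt
RBM14: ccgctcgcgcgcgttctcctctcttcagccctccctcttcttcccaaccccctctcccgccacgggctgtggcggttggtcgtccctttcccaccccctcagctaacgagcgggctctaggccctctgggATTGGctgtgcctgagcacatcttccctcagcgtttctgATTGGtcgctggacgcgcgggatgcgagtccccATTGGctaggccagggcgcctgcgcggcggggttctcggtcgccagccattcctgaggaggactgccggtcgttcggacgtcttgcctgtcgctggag
NONO: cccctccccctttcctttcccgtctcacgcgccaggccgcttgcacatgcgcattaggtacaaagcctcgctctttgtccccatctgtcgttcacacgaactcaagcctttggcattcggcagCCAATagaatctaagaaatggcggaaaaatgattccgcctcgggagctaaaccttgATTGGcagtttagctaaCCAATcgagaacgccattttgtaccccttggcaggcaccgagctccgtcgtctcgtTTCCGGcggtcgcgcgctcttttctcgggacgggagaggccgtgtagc
CCAAT was found 3 times each in the RBM14 and NONO windows and not in the PSPC1 window, and 34.6% of the 35116 windows of all genes hold it. CCGGAA was found once each in the PSPC1 and NONO windows, against 17.2% of all windows. Of the 2 MALAT1 windows, 1 holds CCGGAA and TATAAA (11.5% of all windows) and the other holds none of the motifs searched. TTCNNGAA and GAANNTTC, the letters of paired heat shock element units, were searched on both strands and were in none of the 5 windows; 13.5% of all windows hold at least one of them. A match or its lack describes only the letters of these windows.

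Total counts ran from 15507896 to 34387618 per library, and the 6 genes together took 0.143% to 0.183% of them. FBXW7 was at 21.7 to 33.5 CPM (counts scaled to library size) in the WT libraries and at 13.8 to 17.4 CPM in the KO libraries, and a count per gene does not show what was deleted. All 10 colon epithelial markers were measured, with summed levels of 1971 to 3022 CPM. Of 11 markers of fibroblasts, immune, erythroid and liver cells, summed at 23.4 to 40.3 CPM, only CD68 and COL1A1 passed the filter, and LUM and CD3E had 0 counts, which allows up to 0.0163 CPM over the 8 libraries. Mitochondrial tRNAs took 0.0444% and 0.0431% of counts in the KO heat shock libraries and 0.376% to 0.622% in the other libraries. The KO heat shock pair thus stood apart in this class of RNA. Abundant RNAs without a poly(A) tail, a list of 11, took at most 0.0036% of counts in any library. The labels do not say which libraries were poly(A) selected and which were depleted of ribosomal RNA. In bulk libraries, a change in the share of cells that hold an RNA and a change in the amount per cell cannot be told apart, and every level is relative to the other RNAs of its library.

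Scaled to full exon length, NONO and SFPQ were the most abundant of the 6 and NEAT1 the least. NONO ran from 106.8 ± 1.11 CPM per kb (SD, n = 2) in KO heat shock to 140.7 ± 8.56 in WT heat shock. SFPQ was at 91.7 ± 8.18 CPM per kb in WT heat shock and 35.0 ± 0.191 in WT recovery. RBM14 ran from 13.2 ± 1.29 to 37.6 ± 2.43 CPM per kb, MALAT1 from 14.0 ± 3.93 to 43.7 ± 4.4, and PSPC1 from 12.2 ± 0.596 to 20.2 ± 0.375. In WT recovery MALAT1 (43.7 ± 4.4 CPM per kb) stood above SFPQ (35.0 ± 0.191), while in the other 3 groups SFPQ stood above MALAT1. NEAT1 was at 0.575 ± 0.12 CPM per kb of its 22.767 kb of exon in WT heat shock and at 2.47 ± 0.383 in WT recovery. If all its reads came from the short transcript annotated at 3.441 kb, the same counts would be 3.81 ± 0.795 and 16.4 ± 2.53 CPM per kb, and the files do not divide reads between the forms.

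**Figure D1:**
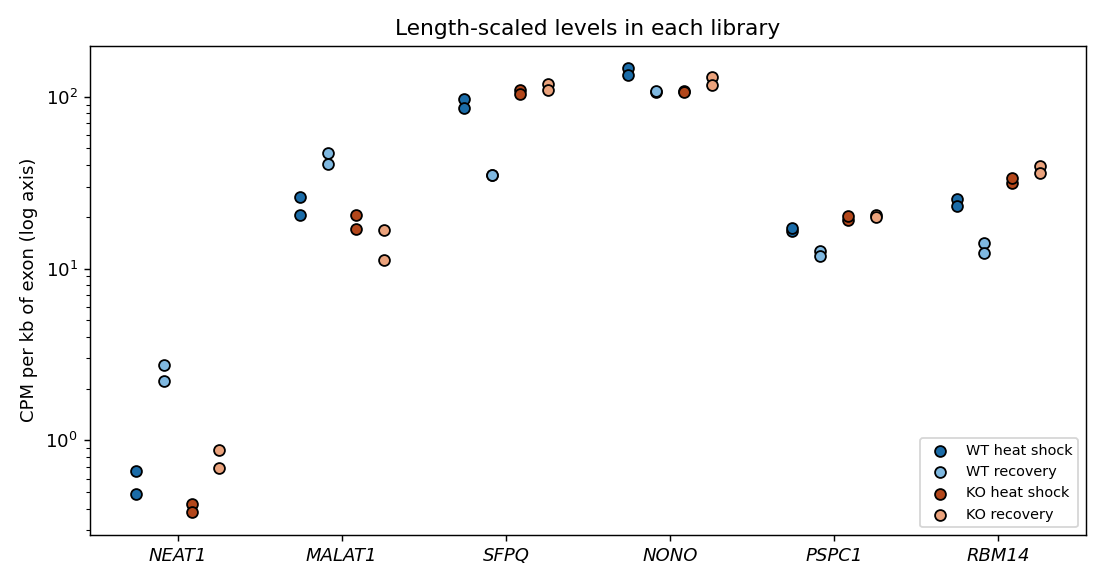
Length-scaled levels (CPM per kb of exon, log axis) of the 6 genes; each point is 1 of the 8 libraries, coloured by group. NEAT1 lies below 3 CPM per kb in every library, and NONO lies above 100.

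The first comparison followed the WT cells from heat shock into recovery. Both noncoding RNAs rose and all 4 proteins' mRNAs fell. NEAT1 rose most of the 6, by 4.31-fold, and SFPQ fell most, by 2.62-fold. The adjusted p-values are from edgeR's quasi-likelihood test over 17471 genes, of which 50.8% passed in this comparison (24.8% higher and 26% lower). Called genes are thus common here, and the 6 of 6 called among these genes is read against that. The median change of all genes tested was 0.01 on the log2 scale.

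NEAT1 had 218 and 293 counts at heat shock in WT cells and 825 and 1053 counts in recovery, or 11.2 and 15 against 50.1 and 62.5 CPM. Both recovery libraries stood far above both heat shock libraries. The log2 change was 2.11 ± 0.12 (SE, adjusted p = 3.3e-10), with 2.17 and 2.05 in the 2 pairs, and it placed NEAT1 at rank 42 of all genes by p. MALAT1 was at 179.9 and 232 CPM at heat shock and at 358 and 413 CPM in recovery. The groups did not overlap for either gene, which held for 75.4% of all genes tested. The log2 change of MALAT1 was 0.91 ± 0.14 (adjusted p = 2.55e-05).

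SFPQ, the largest of the DBHS proteins, was at 724 and 638 CPM at heat shock and at 259 and 261 CPM in recovery. The recovery libraries lay close together and well below the others. SFPQ fell by 1.39 ± 0.10 on the log2 scale (adjusted p = 5.26e-09). RBM14 was at 99.6 and 90.8 CPM at heat shock and at 55.5 and 48.3 CPM in recovery, a log2 change of -0.88 ± 0.10 (adjusted p = 9.1e-07). The other DBHS genes changed less. PSPC1 went from 79.5 and 83.1 to 60.8 and 56.7 CPM (-0.47 ± 0.09, adjusted p = 4.32e-04), and NONO from 777 and 713 to 563 and 573 CPM (-0.39 ± 0.10, adjusted p = 0.00302). None of the 4 overlapped between the groups, where 75.4% of all genes tested did not overlap, so this adds little. Within the DBHS family the fall ran from 0.39 in NONO to 1.39 in SFPQ. Under upper-quartile scaling the median of all genes moved to 0.10 and the split of calls from 4334 higher and 4540 lower to 5303 and 3686. All 6 calls held in every alternative, with RBM14 at -0.56 under GC and length offsets.

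**Figure D2:**
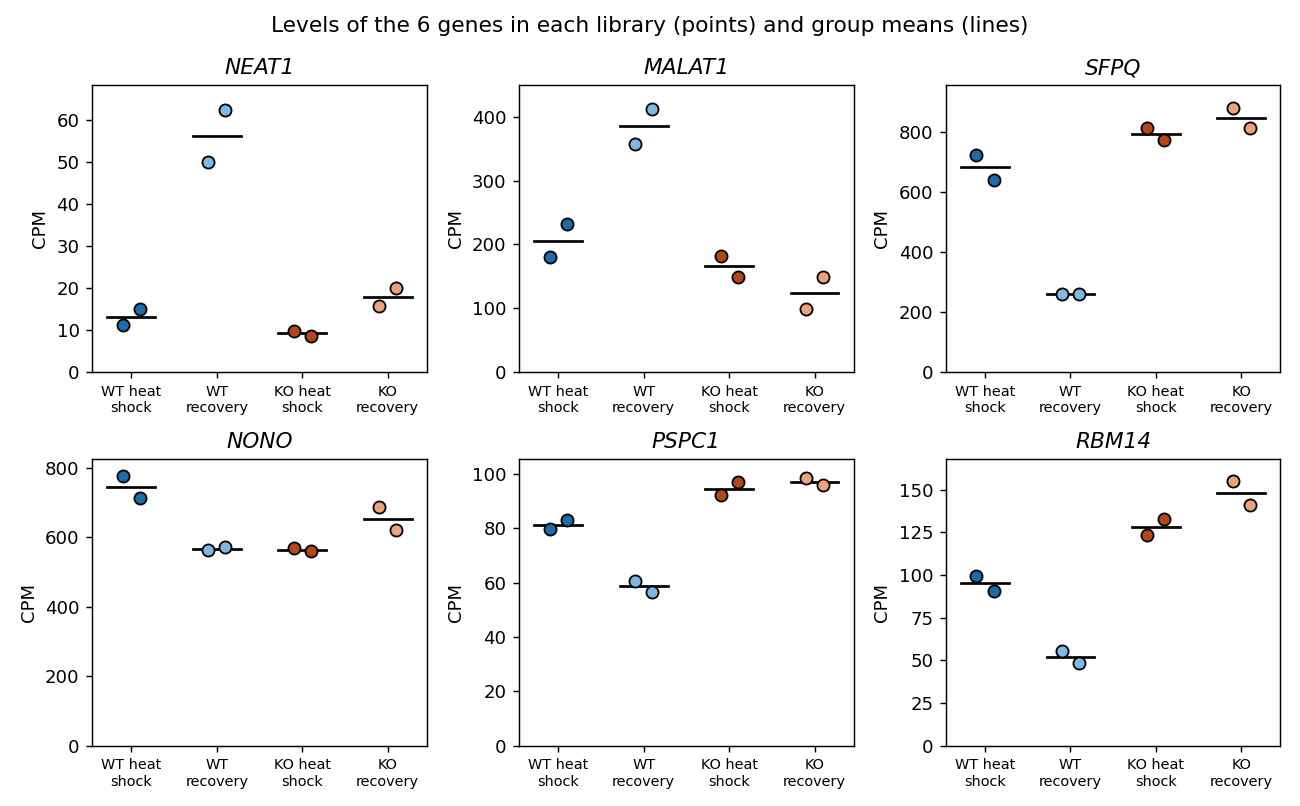
Level of each gene (CPM, linear axes from 0) in the 2 libraries of each group (points) with the group mean (line). NEAT1 and MALAT1 are highest in WT recovery, where SFPQ, PSPC1 and RBM14 are lowest; NONO is as low in KO heat shock as in WT recovery.

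Over the same interval in the KO line, NEAT1 rose by 1.94-fold, MALAT1 was called lower, and none of the 4 protein genes passed. The background in this comparison was 41.8% of genes called, 20.6% higher and 21.1% lower. NEAT1 had 260 and 305 counts in the KO heat shock libraries and 350 and 525 in recovery, or 9.73 and 8.67 against 15.6 and 20 CPM. The recovery libraries were higher in both pairs, by 0.68 and 1.20, and the log2 change was 0.96 ± 0.13 (adjusted p = 9.8e-06). MALAT1 was at 182 and 149.6 CPM at heat shock and at 99.4 and 148 CPM in recovery, a log2 change of -0.44 ± 0.14 (adjusted p = 0.0169). That call came from the first pair, with -0.87 against -0.01 in the second. Without KO recovery replicate 1 the value was 0.01 and without KO heat shock replicate 1 it was -0.01. Both of these fits rest on the second KO pair and are not separate checks. It was also lost with DESeq2 (-0.45, adjusted p = 0.255), with GC and length offsets (-0.08, adjusted p = 0.652) and with no replicate block (-0.42, adjusted p = 0.0514).

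SFPQ stayed at a high level in the KO line, with 811 and 772 CPM at heat shock and 879 and 812 CPM in recovery. Its log2 change was 0.09 ± 0.10 (adjusted p = 0.476), with a 95% interval of -0.11 to 0.30 that does not reach the WT value. NONO (569 and 561 against 687 and 622 CPM) gave 0.21 ± 0.10 (adjusted p = 0.0989) with an interval of 0.00 to 0.42. PSPC1 (92.1 and 96.9 against 98.5 and 95.9 CPM) gave 0.04 ± 0.09 (adjusted p = 0.756) with an interval of -0.15 to 0.23, and its groups overlapped. RBM14 (123 and 133 against 155 and 141 CPM) gave 0.21 ± 0.09 (adjusted p = 0.0791) with an interval of 0.01 to 0.40. With GC and length offsets NONO passed (0.26, adjusted p = 0.0167) and RBM14 turned to -0.07 (adjusted p = 0.484). Without KO heat shock replicate 1 PSPC1 was at -0.01 (adjusted p = 0.966). The mitochondrial tRNA share moved with this comparison, from 0.0431% to 0.0444% at heat shock to 0.471% to 0.622% in recovery, and its part in these values was not tested.

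The difference of the recovery responses, KO minus WT, was tested as an interaction and passed for all 6 genes, against 56.3% of all genes (28.5% higher and 27.8% lower). For NEAT1 it was -1.15 ± 0.18 (adjusted p = 2.21e-05): the rise was 2.22-fold smaller in the KO line. For MALAT1 it was -1.35 ± 0.20 (adjusted p = 1.18e-05). SFPQ differed by 1.48 ± 0.14 (adjusted p = 9.22e-08), RBM14 by 1.09 ± 0.14 (adjusted p = 2.0e-06), NONO by 0.60 ± 0.14 (adjusted p = 0.00128) and PSPC1 by 0.51 ± 0.13 (adjusted p = 0.00273). The signed response was thus lower in KO than in WT cells for the noncoding RNAs and higher for the mRNAs of the proteins. Those mRNAs fell in WT cells and were not called in KO cells. Without KO heat shock replicate 1 the PSPC1 value was 0.46 (adjusted p = 0.0545), and without KO recovery replicate 1 the MALAT1 value was -0.89 (adjusted p = 1.31e-04). With GC and length offsets MALAT1 was at -0.76 (adjusted p = 0.00131) and RBM14 at 0.49 (adjusted p = 0.0015). The KO heat shock pair, with its low mitochondrial tRNA share, enters each of these differences, and the part of this was not tested.

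KO cells were then set against WT cells at each condition. These comparisons use the same libraries as the recovery responses and are not further evidence for them. At heat shock, 5 of the 6 passed, where 55.6% of all genes did (27.4% higher and 28.2% lower in KO). Mitochondrial tRNAs took 0.0444% and 0.0431% of counts in the KO heat shock libraries, against 0.376% and 0.621% in the WT heat shock libraries. The part of this in the heat shock comparison was not tested. RBM14 was higher in KO by 0.43 ± 0.09 (adjusted p = 0.00118) and NONO lower (-0.40 ± 0.08, adjusted p = 9.89e-04). SFPQ (0.22 ± 0.09, adjusted p = 0.045), PSPC1 (0.22 ± 0.08, adjusted p = 0.0311) and NEAT1 (-0.51 ± 0.17, adjusted p = 0.0173) passed by less. SFPQ and PSPC1 did not pass under upper-quartile scaling (0.16 each, adjusted p of 0.123 and 0.107). SFPQ was at 0.12 without WT heat shock replicate 2 (adjusted p = 0.205), PSPC1 at 0.14 without WT heat shock replicate 1 (adjusted p = 0.146), and neither passed without either KO heat shock library. With GC and length offsets RBM14 was at 0.78 and PSPC1 at 0.11 (adjusted p = 0.174). NEAT1 did not pass without WT heat shock replicate 2 (-0.30, adjusted p = 0.181) or KO heat shock replicate 2 (-0.43, adjusted p = 0.112). MALAT1 gave -0.31 ± 0.16 (adjusted p = 0.113), with an interval of -0.66 to 0.03, and passed with GC and length offsets (-0.68, adjusted p = 6.52e-04) and without WT heat shock replicate 1 (-0.53, adjusted p = 0.012).

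In recovery all 6 differed between the lines, against 63.1% of all genes (31.8% higher and 31.3% lower). NEAT1 was 3.15-fold lower in KO cells (-1.66 ± 0.15, adjusted p = 2.92e-07) and MALAT1 3.11-fold lower (-1.64 ± 0.17, adjusted p = 1.01e-06). SFPQ was 3.25-fold higher (1.70 ± 0.09, adjusted p = 1.57e-09), RBM14 2.85-fold higher (1.51 ± 0.10, adjusted p = 1.09e-08) and PSPC1 1.65-fold higher (0.73 ± 0.08, adjusted p = 2.8e-06). NONO gave 0.20 ± 0.08 (adjusted p = 0.0451) and did not pass under upper-quartile scaling (0.04, adjusted p = 0.702), which shifted the median of all genes to -0.18 and the split of calls from 5562 higher and 5464 lower to 4212 and 6852. NONO also failed without WT recovery replicate 1, WT recovery replicate 2 or KO recovery replicate 1 (0.19, 0.21 and 0.13, adjusted p of 0.185, 0.152 and 0.243).

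**Figure D3:**
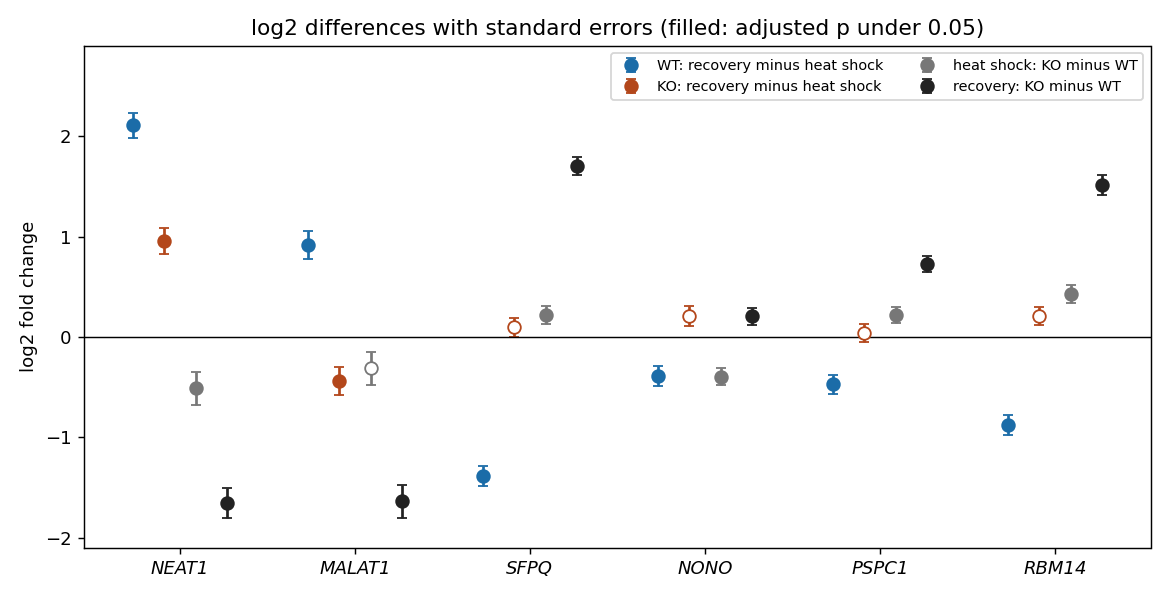
Log2 fold changes with standard errors for the recovery response in each line and for KO against WT at each condition; filled points have an adjusted p under 0.05. For SFPQ, PSPC1 and RBM14 the recovery difference between the lines (black) is positive, and for NEAT1 and MALAT1 it is negative, at -1.66 and -1.64.

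SFPQ, PSPC1 and RBM14 shared an order of group levels, and NEAT1, MALAT1 and NONO each had their own. NEAT1 ran from WT recovery through KO recovery and WT heat shock to KO heat shock, and the middle groups were close, with a lowest KO recovery library of 15.6 CPM and a highest WT heat shock library of 15 CPM. For MALAT1 the order was WT recovery, WT heat shock, KO heat shock and KO recovery, and the heat shock groups overlapped. SFPQ and PSPC1 were highest in the KO groups, which did not differ beyond their spread, then WT heat shock, then WT recovery. RBM14 had the same order, with KO recovery above KO heat shock. NONO alone was highest in WT heat shock, and its WT recovery and KO heat shock libraries overlapped at 561 to 573 CPM. Across the 8 libraries, the log2 levels of PSPC1 and RBM14 had a Pearson r of 0.99, SFPQ and PSPC1 0.97, NEAT1 and MALAT1 0.76, and NEAT1 and SFPQ -0.91. NONO had r between -0.36 and 0.42 with the other 5. These values describe 8 libraries in 4 groups, and the points share those groups.

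The authors' deposited table, which compares 1 pair at a time and scales by column totals, gave normalized log2 changes for NEAT1 of 2.30 and 2.20 in the WT pairs and 0.52 and 1.12 in the KO pairs. For MALAT1 the authors' deposited table gave 1.13 and 0.97 in WT and -1.04 and -0.09 in KO, and for SFPQ -1.35 and -1.15 in WT and -0.05 and -0.01 in KO. In each WT pair the direction was that of the values above for all 6 genes. The WT falls were smaller in the authors' deposited table, and the rises of NEAT1 and MALAT1 larger. In the WT pairs it gave -0.33 and -0.17 for NONO, -0.25 and -0.41 for PSPC1, and -0.71 and -0.77 for RBM14. In the KO pairs the authors' deposited table was negative for SFPQ and for PSPC1 (-0.07 and -0.10), where the values above were 0.09 and 0.04 and did not pass.

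The mRNAs of other proteins reported in paraspeckles were taken as a list of 38, of which 36 were tested. In WT recovery 18 fell and 7 rose, with a median of -0.35, against 26% and 24.8% of all genes. With GC and length offsets 21 fell and 4 rose, and with no low-count filter 18 fell and 4 rose. TOE1, a 3′ exonuclease, fell by 1.82 ± 0.13 (adjusted p = 3.63e-09), and RBM12, an RNA-binding protein, by 1.43 ± 0.10 (adjusted p = 1.67e-09). ZC3H6, a zinc finger protein, rose by 1.87 ± 0.13 (adjusted p = 2.52e-09). In KO recovery 10 rose and 11 fell, with a median of 0.06, against 20.6% and 21.1% of all genes. ZC3H6 fell there by 1.19 ± 0.15, opposite to WT, with an interaction of -3.06 ± 0.20 (adjusted p = 9.83e-10). HNRNPA1, a splicing repressor, rose by 1.47 ± 0.13 in KO cells, and it has many processed pseudogenes, so its counts are uncertain. The KO count of 21 calls fell to 6 without either library of the first KO pair, to 11 without either library of the second (replicate 2), and to 13 with GC and length offsets, 10 higher and 3 lower. Between the lines, 13 were higher in KO and 10 lower at heat shock (median 0.13), and 25 were higher and 5 lower in recovery (median 0.50), against 55.6% and 63.1% of all genes called. The interaction was positive for 16 and negative for 8 (median 0.37), or 22 and 3 with GC and length offsets, against 56.3% of all genes called.

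CPSF6, CPSF7 and NUDT21 are parts of the cleavage complex that acts at the NEAT1 polyadenylation site and favours the short form, and HNRNPK opposes it. These 4 were singled out after their values were seen, and they are given as values only. In WT recovery CPSF6 fell by 0.59 ± 0.09 (adjusted p = 4.66e-05), NUDT21 rose by 0.28 ± 0.10 (adjusted p = 0.0242), CPSF7 gave -0.07 ± 0.10 (adjusted p = 0.63) and HNRNPK gave 0.00 ± 0.10 (adjusted p = 0.996). In KO recovery NUDT21 fell by 0.38 ± 0.10 (adjusted p = 0.00463), while CPSF6 gave 0.00 ± 0.09 (adjusted p = 0.983), CPSF7 0.13 ± 0.10 (adjusted p = 0.299) and HNRNPK 0.00 ± 0.10 (adjusted p = 0.984). The share of the long form was not measured.

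For the proteins of the nuclear speckles, where MALAT1 resides, only mRNA was measured. In WT recovery 21 of the 27 mRNAs tested fell and 1 rose, with a median of -0.51, against 26% and 24.8% of all genes. SRSF7, an SR splicing factor, fell by 1.51 ± 0.11 (adjusted p = 5.59e-09), SRSF5 by 1.03 ± 0.10 and SRSF2 by 0.93 ± 0.10, and PPIG, a nuclear cyclophilin, rose by 0.25 ± 0.10 (adjusted p = 0.0398). In KO recovery 6 rose and 7 fell (median 0.01), near the 41.8% of all genes called, and with GC and length offsets the split was 15 and 3 (median 0.23). SRSF7 rose there by 0.84 ± 0.11 and SRSF5 fell by 0.73 ± 0.09. That KO count of 13 was 4 without either library of the first KO pair (replicate 1). The interaction was positive for 17 and negative for 1 (median 0.54), against 56.3% of all genes called. KO cells had 13 higher and 3 lower at heat shock (median 0.25), against 55.6% of all genes called, or 9 and 7 with GC and length offsets. In recovery 26 were higher and 0 lower (median 0.73), against 31.8% and 31.3% of all genes, and 21 and 0 under upper-quartile scaling.

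**Figure D4:**
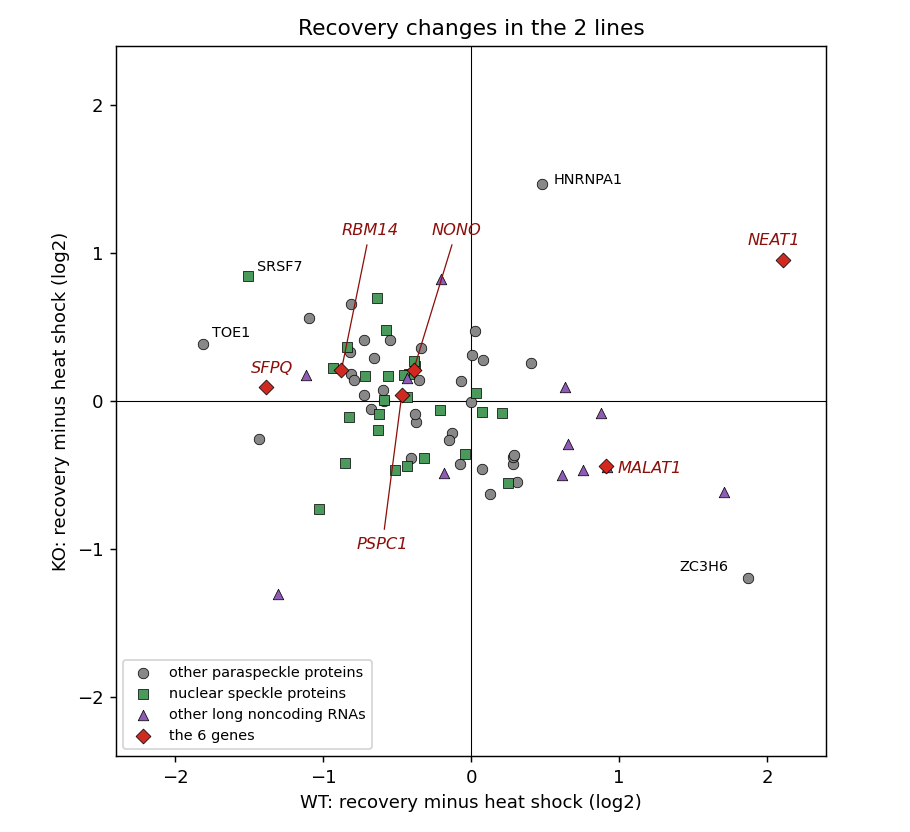
Log2 change during recovery in WT (horizontal) and KO cells (vertical); each point is a gene, with the 6 genes as red diamonds and the lists as other symbols. NEAT1 is positive in both lines, MALAT1 and ZC3H6 are positive in WT and negative in KO, and SFPQ lies far left of zero near the horizontal axis.

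The machinery that forms the MALAT1 end was taken as 13 genes: the RNase P subunits, the tRNA 3′ endonuclease ELAC2 and the methyltransferase METTL16, which binds the MALAT1 triple helix. In WT recovery 7 fell and 0 rose (median -0.55), against 26% and 24.8% of all genes. POP1 fell by 0.98 ± 0.10, POP7 by 0.95 ± 0.10, RPP38 by 0.97 ± 0.12 and ELAC2 by 0.79 ± 0.10. In KO recovery 4 rose and 2 fell (median 0.00), near the 41.8% of all genes called, and with GC and length offsets 4 rose and 5 fell. RPP21 rose by 0.99 ± 0.10, and RPPH1, the RNA subunit of RNase P, fell by 1.96 ± 0.24. RPPH1 has no poly(A) tail and was 2.50 ± 0.29 higher in KO than in WT cells at heat shock. The interaction was positive for 7 and negative for 2 (median 0.83), against 56.3% of all genes called. KO cells had 6 higher and 2 lower at heat shock (median 0.17) and 11 higher and 0 lower in recovery (median 0.77), where 55.6% and 63.1% of all genes were called.

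Other long noncoding RNAs give the context for NEAT1 and MALAT1. Of 12 tested from a list of 18, 7 rose in WT recovery and 2 fell (median 0.62): HOTAIRM1 rose by 1.71 ± 0.30, OIP5-AS1 by 0.75 ± 0.10 and TUG1 by 0.61 ± 0.09, and H19 and DANCR fell by 1.12 ± 0.30 and 0.44 ± 0.10. In KO recovery 0 rose and 3 fell (median -0.37), namely TUG1 (-0.50 ± 0.09), OIP5-AS1 (-0.47 ± 0.10) and MIR17HG (-1.30 ± 0.37), and none of them was called without either library of the first KO pair. The interaction was negative for 7 and positive for 2 (median -0.74), where 27.8% and 28.5% of all genes were called lower and higher. At heat shock 5 were higher in KO and 1 lower (median 0.35), and 2 were called without KO heat shock replicate 1. In recovery 1 was higher and 7 lower (median -0.65). Of all genes tested, 24.8% rose and 26% fell in WT recovery, and 20.6% rose and 21.1% fell in KO recovery. Between the lines, 27.4% of all genes were higher and 28.2% lower in KO at heat shock, and 31.8% and 31.3% in recovery. Over all 2098 long noncoding genes tested, 18.4% rose and 14.8% fell in WT recovery, with a median of 0.11. In KO recovery 17.6% of them rose and 10.9% fell (median 0.05). Their interaction was called positive for 441 (21%) and negative for 400 (19.1%). At heat shock 16.7% of them were higher in KO and 25.7% lower (median -0.18), against the list's median of 0.35. In recovery 19.4% were higher in KO and 27.8% lower (median -0.14).

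RNAs without a poly(A) tail are given for their bearing on library type. Of 6 tested from the list of 11, 0 rose and 3 fell in WT recovery (median -0.92), and 1 rose and 3 fell in KO recovery (median -0.91), where 50.8% and 41.8% of all genes were called. RN7SK fell by 1.62 ± 0.27 in WT and by 1.49 ± 0.20 in KO cells, and RMRP by 1.22 ± 0.28 and 1.63 ± 0.20. Between the lines 2 were higher in KO at heat shock (median 1.16) and 4 in recovery (median 0.99), with 0 lower, and 2 interactions were positive (median -0.14), where 55.6%, 63.1% and 56.3% of all genes were called. The recovery count was 2 without WT recovery replicate 1 or WT recovery replicate 2 and 1 without KO recovery replicate 1; the interaction count was 1 without any single KO library. The list was highest in the KO heat shock libraries, where it took 0.0036% and 0.0031% of counts, against 0.0006% to 0.0016% in the other libraries. Its part in the NEAT1 and MALAT1 values was not tested.

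Genes beside the 6 limit how some counts are read. The RBM14-RBM4 read-through gene overlaps RBM14 by 10722 bases on the same strand. It fell by 1.10 ± 0.10 in WT recovery and rose by 0.57 ± 0.09 in KO recovery, and at heat shock it was lower in KO (-0.34 ± 0.11), where RBM14 was higher. RBM4 fell by 0.91 ± 0.10 and rose by 0.50 ± 0.09 in the same comparisons. The program that divided reads between these genes is not given, so the RBM14 values are uncertain to that extent. FRMD8, which ends 9248 bases from NEAT1 on the same strand, fell by 0.68 ± 0.12 in WT recovery while NEAT1 rose. The antisense gene PSPC1-OT1 overlaps PSPC1 by 1133 bases on the other strand. Whether reads were counted by strand is not given, so the PSPC1 values are uncertain to that extent. MPHOSPH8, on the other strand 1292 bases from PSPC1, gave 0.11 ± 0.09 in WT and fell by 0.38 ± 0.09 in KO recovery. Pseudogenes of SFPQ, NONO and PSPC1 are annotated, and reads shared with them may have been lost or divided.

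Among 9878 genes with a mean of at least 10 CPM, the named genes whose log2 levels were most like each of the 6 over the 8 libraries were as follows. NEAT1 was most like ADM, encoding adrenomedullin (r = 0.993), MYH15 (r = 0.986) and IRGQ (r = 0.980). MALAT1 was most like ZRANB3 (r = 0.978) and AP1S3 (r = 0.977). SFPQ was most like GPATCH4, ORC1 and AEN (r = 0.997 each), and RBM14 like UBE2Z, C19orf43 and SHCBP1 (r = 0.997 each). PSPC1 was most like CDKL3 (r = 0.996), HCCS and SHCBP1 (r = 0.995 each), so that SHCBP1 stood beside both PSPC1 and RBM14. NONO was most like ARPC1A (r = 0.997) and NDUFV1 (r = 0.996). With 4 groups and so many genes, such values are high by selection, and they are given as a description.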

How the data were processed

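RNA of 8 libraries, 2 in each of 4 groups, was turned into stranded dUTP libraries and read as 50-base single reads, per the labels' protocols. CASAVA, TopHat and hg19 are listed in the submitters' processing notes, with no version or role. No source used here gives the read counter or whether it used strand. The authors deposited 4 tables, 1 per line and replicate, with whole-number read counts of 2 libraries per gene that were not normalized. The same deposited tables hold raw and normalized log2 fold changes, a z score, and p-values with 2 kinds of q-value, per the file headers. The recovery column was identified only by the name order of each comparison, and the reverse order would exchange the heat shock and recovery libraries of each pair: recovery values would change sign, and group levels, library shares and the comparisons of KO with WT would trade conditions. NA was read as 0. All per-sample columns were used. Of the gene identifiers, 88.8% were found in GENCODE 29, which gave loci and exon lengths in GRCh38.

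Counts were tested with edgeR 4.0.16 in R 4.3.3 (filterByExpr, TMM scaling, quasi-likelihood F test, Benjamini-Hochberg adjustment over 17471 genes, threshold 0.05). All 8 libraries entered each fit. Recovery responses and their difference used the pair (line and replicate number) as a block, as the series design text matches pairs (2 residual degrees of freedom); KO against WT used none (4). Deviations of same-numbered libraries were uncorrelated (r = -0.0143 in WT and -0.0139 in KO). SE is the log2 change divided by the square root of F, and CPM uses TMM library sizes. Replicates differed by more than sampling noise. Chi-square per degree of freedom was 19.0 in WT heat shock, 8.23 in KO recovery, 4.91 in KO heat shock and 2.43 in WT recovery. Counts carry no molecular identifiers, so floors cover counting error only. Alternatives were RLE and upper-quartile scaling, DESeq2 1.42.0, other filters, GC and length offsets (95.4% of tested genes had values), the block, and leaving out each library.

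The 6 genes and the gene lists were chosen with earlier results of these data known. Named from other lists were up to 6 (paraspeckle, speckle) or 4 genes per comparison with the lowest p among those that passed, all genes of a direction with 5 or fewer calls, genes within 20 kb of the 6 genes, their pseudogenes, and for each of the 6 the 3 most like genes; of these, the text gives a selection, clone names were not named, and some genes that the rule takes are left out. Figures were drawn with matplotlib 3.10.9.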

Additional observations from a re-analysis of the deposited data

Results flagged for a closer look

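The recovery response differed between the lines for all 6 genes by the interaction test of edgeR. Relative to WT, the signed KO response was lower for NEAT1 by a log2 difference of -1.15 and for MALAT1 by -1.35. It was higher for SFPQ by 1.48, RBM14 by 1.09, NONO by 0.60 and PSPC1 by 0.51, whose mRNAs fell in WT cells. For MALAT1 the 2 KO pairs were unlike each other, at -0.87 and -0.01, and without single libraries the difference between the lines ran from -1.78 to -0.89, on 1 side of zero in each of those fits. For SFPQ the same range was 1.42 to 1.59. How each mRNA was made or decayed was not measured, and no cause of the differences was tested.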

How the results depend on the processing

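Of 30 results on the 6 genes (6 genes in 5 comparisons), 20 kept their direction and their side of the threshold in every alternative; of 354 values, 22 lost and 4 gained the call and 3 changed sign. For those that changed, the cause was not tested. Leaving out single libraries moved MALAT1 in KO recovery from -0.87 to 0.014 (without KO recovery replicate 1), PSPC1 in KO recovery from -0.014 (without KO heat shock replicate 1) to 0.097, the PSPC1 interaction from 0.43 to 0.64, and in KO against WT at heat shock SFPQ from 0.12 to 0.27, PSPC1 from 0.14 to 0.25, NEAT1 from -0.76 to -0.30 and MALAT1 from -0.53 to -0.13; NONO in KO against WT at recovery ran from 0.13 to 0.28. DESeq2 gave -0.45 for MALAT1 in KO recovery, and 2381 genes higher and 2408 lower there against 3601 and 3694. Without single libraries these counts ran from 1520 to 2447 and from 1318 to 2207. GC and length offsets gave, in KO recovery, -0.079 for MALAT1, -0.074 for RBM14 and 0.26 for NONO, and at heat shock 0.11 for PSPC1 (adjusted p = 0.174) and -0.68 for MALAT1. Upper-quartile scaling gave 0.16 for SFPQ and 0.16 for PSPC1 at heat shock and 0.038 for NONO in recovery. The filter of 1 CPM gave 0.21 for SFPQ at heat shock (adjusted p = 0.0524) and 0.17 for NONO in recovery (adjusted p = 0.0844), and no filter gave -0.30 for MALAT1 at heat shock (adjusted p = 0.00469). Levels moved beyond their SD under upper-quartile scaling for SFPQ (279 CPM), NONO (610.1 CPM) and PSPC1 (63.1 CPM) in WT recovery, NONO in KO heat shock (546 CPM) and PSPC1 in KO recovery (93.0 CPM).

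Of 413 counts compared, 31 moved by over 1.5 times. In KO recovery the calls among other paraspeckle proteins were 13 with GC and length offsets and 6 to 11 without single libraries, against 21; speckle proteins 4 to 9 against 13; other long noncoding RNAs 0 to 4 against 3; and RNAs without a poly(A) tail 2 with DESeq2 against 4. Among the interactions, RNAs without a poly(A) tail gave 1 with upper-quartile scaling, 0 with DESeq2, 1 with GC and length offsets and 1 to 2 without single libraries, against 2, and other long noncoding RNAs gave 5 with GC and length offsets against 9. At heat shock the long noncoding RNAs gave 2 to 5 without single libraries against 6, and in recovery the RNAs without a poly(A) tail gave 1 to 4 against 4.

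With no replicate block, 4442 genes were higher and 4603 lower in WT recovery, and 3611 and 3788 in KO recovery, and MALAT1 in KO recovery was -0.42 (adjusted p = 0.0514). With a replicate block, KO against WT gave 4751 higher and 4905 lower at heat shock and 5550 and 5463 in recovery. The block changed no other call of the 6 genes.

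The lowest count of the 6 genes in any library was 218, and each group had 2 libraries. Fits without 1 library rest on 1 pair, or 1 library, in that group, which is assumed to vary like the others. For the recovery responses and their difference, leaving out either library of a pair leaves the same other pair. Such fits nearly repeat each other among the values counted above.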
